A study of Mus musculus with 64 samples.

Results

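Iron handling in bone marrow-derived macrophages (BMMs) was described through 9 genes, chosen by name: the divalent metal transporters Slc11a1 and Slc11a2, the exporter Slc40a1, the ferritin subunits Fth1 and Ftl1, the transferrin receptor Tfrc, the siderophore-binding protein Lcn2, the hemochromatosis gene Hfe and the iron sensor Ireb2. All 9 of 9 were among the 14537 genes that passed the filter on low counts, out of 55487 genes counted. RNA sequencing covered 64 libraries in 16 groups of 4. The cells came from female C57BL/6JRj mice with a functional aryl hydrocarbon receptor (Ahr+/+) and from C57BL/6 mice with a whole-body deletion of it (Ahr-/-). The Ahr-/- mice came from another supplier and had been crossed back to C57BL/6JRj mice several times. Mice were aged 8 to 12 weeks, with 4 per genotype. The cells of every group were differentiated in medium conditioned by L929 fibroblasts as a source of M-CSF, and the labels do not name that supplement for the treatment that followed. They were exposed for 6 h to 0.01% DMSO, to 1 µM benzo[a]pyrene (BaP) or to 10 µM indole-3-carbinol (I3C), both ligands of the receptor, and then kept for a further 3 or 20 h. In each genotype and at each time, 1 group received DMSO alone, 1 received DMSO followed by heat-killed Salmonella Enteritidis (hk S.E.) at 10000000 bacteria per ml, and 2 received a ligand followed by hk S.E. No group received a ligand without hk S.E., and the contrasts with a ligand share their DMSO controls within a genotype and time.

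Iron is both a cofactor that bacteria need and a metal that damages cells when free, and macrophages recycle most of the body's iron from aged red cells. Iron bound to transferrin enters through the transferrin receptor (Tfrc). It is moved out of endosomes by the transporter encoded by Slc11a2 (DMT1) and out of phagosomes by that of Slc11a1 (NRAMP1), is stored in shells of ferritin heavy (Fth1) and light (Ftl1) chains, and leaves the cell through ferroportin (Slc40a1). Hfe binds the transferrin receptor and takes part in hepcidin control, Ireb2 encodes the iron regulatory protein IRP2, which binds stem-loops in the mRNAs of this pathway when iron is low, and lipocalin 2 (Lcn2) captures the bacterial siderophore enterobactin. Mice of the C57BL/6 background carry a known loss-of-function allele of Slc11a1, so its transcript is measured here in cells whose NRAMP1 protein is known not to work.

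The stem-loops that IRP2 and its relative IRP1 bind, the iron responsive elements (IREs), tie these mRNAs to one another and were read from the GENCODE M21 transcripts on GRCm38. Each sequence runs 5′ to 3′ on the transcript over 29 bases, the capitals mark the unpaired C and the CAGTGN of the loop, and the 4 matches of Tfrc are lettered in their order along the transcript. In the first 7, all 5 of 5 positions between bulge and loop pair with their partners across the loop, and in the Slc11a2 sequence, shown because it is a known IRE, 4 of 5 do. Matches with 4 of 5 pairs also stand in the coding sequences of Slc11a1 and Lcn2, which are not printed.
Fth1, 5′ UTR, chr19:9982732-9982760, plus strand: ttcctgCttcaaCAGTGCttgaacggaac
Ftl1, 5′ UTR, chr7:45459779-45459807, minus strand: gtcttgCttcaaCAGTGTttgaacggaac
Slc40a1, 5′ UTR, chr1:45925465-45925493, minus strand: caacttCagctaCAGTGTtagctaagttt
Tfrc a, 3′ UTR, chr16:32631219-32631247, plus strand: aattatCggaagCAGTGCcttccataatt
Tfrc b, 3′ UTR, chr16:32631598-32631626, plus strand: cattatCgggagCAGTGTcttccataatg
Tfrc c, 3′ UTR, chr16:32631663-32631691, plus strand: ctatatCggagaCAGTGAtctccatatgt
Tfrc d, 3′ UTR, chr16:32631710-32631738, plus strand: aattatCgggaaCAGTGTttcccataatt
Slc11a2, 3′ UTR, chr15:100395153-100395181, minus strand: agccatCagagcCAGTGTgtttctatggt

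The letters alone, a C, 5 bases of any kind and CAGTGN on the transcript strand, stood in 65.57% of the longest transcripts of 21901 protein-coding genes, so they separate little. With all 5 pairs, a requirement added after the matches had been seen, they stood in 1.242% of them, 272 genes. By textbook knowledge, an IRE before the coding region holds back translation of the ferritins and of ferroportin, while those behind the coding region protect the Tfrc mRNA from decay. mRNA counts read the second mechanism and not the first. The Slc11a2 match lies in transcripts of the Slc11a2-205 type, and the gene-level counts do not separate it from the isoform without that end.

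Gene-assigned counts per library ranged from 12152496 to 50644601, and 1 further library, replicate 4 of the Ahr+/+ DMSO-only group at 20 h, held 233047331. No 2 libraries held identical values. All 8 of 8 macrophage markers were tested, with a summed level of 18604 to 35722 CPM (counts scaled to library size with TMM factors), whereas 7 of 8 erythroid markers were at 0 in all libraries and the erythroid sum stayed at or below 0.278 CPM. The T cell, B cell, dendritic cell and fibroblast marker sums did not exceed 2.67, 0.984, 2.43 and 7.88 CPM. Ahr counts did not fall in the knockout: they lay at 1.09 to 14.9 CPM in Ahr+/+ and at 5.10 to 28.1 CPM in Ahr-/- libraries, and a count over the whole gene does not show the deleted part. The receptor's target Ahrr, a repressor of the receptor, did follow the labels, with a log2 difference after BaP at 3 h of 3.36 in Ahr+/+ BMMs (adjusted p = 7.13e-14, edgeR) and -0.33 in Ahr-/- BMMs (adjusted p = 0.859). The difference between these effects was 3.69 (adjusted p = 0.000204). In the other ligand contrasts the Ahrr effect did not differ between genotypes with an adjusted p under 0.01 in edgeR. The differences were 1.42 (adjusted p = 0.0399) for BaP at 20 h, 1.77 (adjusted p = 0.99998) for I3C at 3 h and 1.63 (adjusted p = 0.0155) for I3C at 20 h. Nqo1, which the paper names as a canonical target raised by both ligands, was less clear in Ahr+/+ BMMs. Its log2 differences were 0.75 and 0.75 after BaP and 0.71 and 1.13 after I3C at 3 and 20 h. None had an adjusted p under 0.01 in edgeR (0.94, 0.196, 0.39 and 0.0112). Tiparp, read as a further check, did not pass there either, with a smallest adjusted p of 0.338.

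One set of libraries stood apart before any comparison. A length index was computed for each library as the median deviation from the group mean, in log2 CPM, of 3823 protein-coding genes with over 6000 bases of exon minus that of 798 with under 1500. Among the Ahr-/- libraries numbered 1 and 2, 15 of 16 had an index below 0 (median -0.20, range -0.40 to 0.22), and the exception was replicate 1 of the DMSO-only group at 3 h. Among those numbered 3 and 4, none of 16 did (median 0.20, range 0.0025 to 0.29). Ahr+/+ libraries ranged from -0.17 to 0.15. Several iron genes moved with the index over the 32 Ahr-/- libraries. Ireb2, Slc40a1, Slc11a2 and Tfrc are themselves among the long genes and Ftl1 is among the short ones. Pearson's r of the deviation from the group mean was 0.98 for Ireb2, 0.97 for Tfrc, 0.79 for Slc40a1, -0.81 for Slc11a1, -0.91 for Fth1, -0.93 for Ftl1 and -0.94 for Lcn2. Slc11a2 (0.17) and Hfe (-0.14) moved little with it. In the 32 Ahr+/+ libraries the values were 0.80 for Ireb2, 0.72 for Tfrc, -0.79 for Ftl1 and 0.04 for Lcn2. These correlations are descriptions with no test, and Ahr-/- values without the libraries numbered 1 and 2 are given beside the results where they change a call or move a value.

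**Figure D1:**
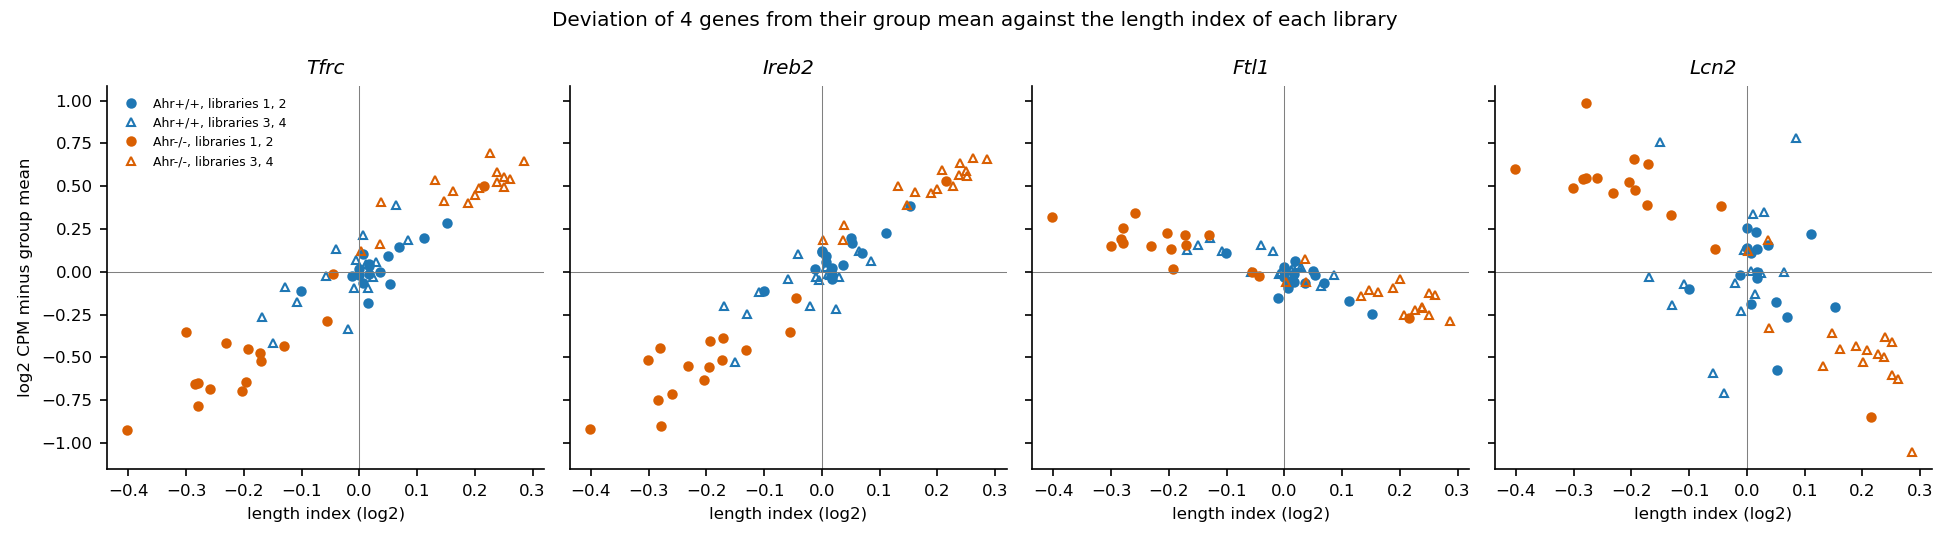
Deviation of Tfrc, Ireb2, Ftl1 and Lcn2 from their group mean (log2 CPM, vertical axis) against the length index of each library (horizontal axis), 1 point per library, with Ahr-/- libraries numbered 1 and 2, Ahr-/- libraries numbered 3 and 4, and Ahr+/+ libraries marked apart. Tfrc and Ireb2 rise along the index and Ftl1 falls, with r between -0.93 and 0.98 over the 32 Ahr-/- libraries, and Lcn2 falls in Ahr-/- libraries (r = -0.94) and shows no slope in Ahr+/+ libraries (r = 0.04).

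Levels between genes were compared as CPM per kilobase of merged exons, as mean ± SD of 4 libraries. In Ahr+/+ BMMs with DMSO alone at 3 h, Ftl1 stood highest at 10267 ± 1349 and Fth1 followed at 2381 ± 141. Slc11a1 came next at 87.0 ± 12.9, above Hfe at 15.7 ± 0.736, Tfrc at 11.99 ± 2.35 and Slc11a2 at 10.2 ± 1.25. Ireb2 (6.71 ± 1.64) and Slc40a1 (6.35 ± 0.567) lay lower, and Lcn2 was lowest at 1.36 ± 0.584. The order in the middle depended on the length used: per kilobase of the longest coding transcript Slc40a1 stood at 16.9 ± 1.51, beside 15.7 ± 0.736 for Hfe, 15.2 ± 2.98 for Tfrc, 14.6 ± 1.80 for Slc11a2 and 11.02 ± 2.70 for Ireb2, while Ftl1, Fth1 and Slc11a1 stayed highest and Lcn2 lowest. After 20 h with hk S.E. the order had changed: Fth1 led at 13485 ± 1178, ahead of Ftl1 at 9364 ± 794, Lcn2 came next at 789 ± 91.8, then Slc11a1 at 169.5 ± 15.1, and Slc40a1 was last at 0.572 ± 0.155.

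**Figure D2:**
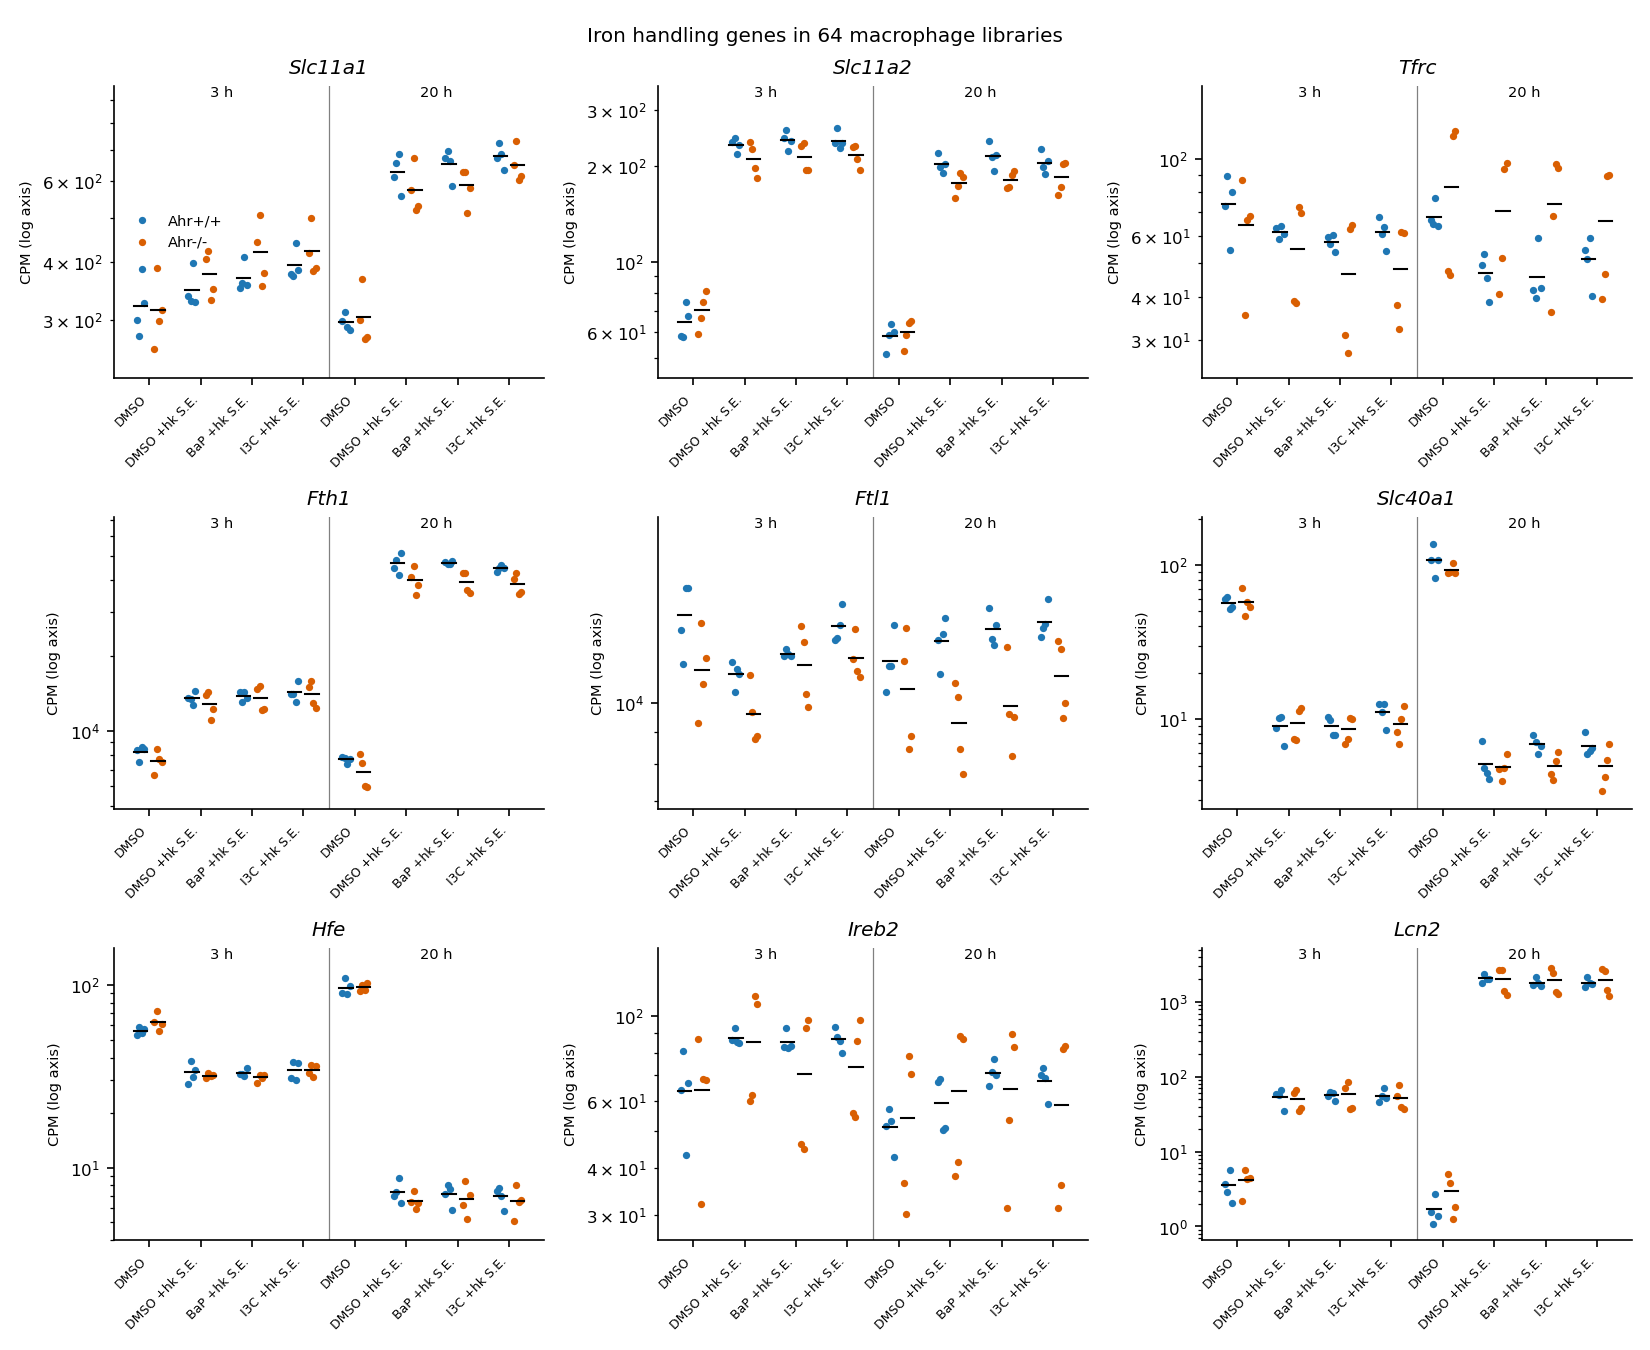
CPM of the 9 iron genes (log axis) in each of the 64 libraries, by group along the horizontal axis, with points for libraries and a line for the mean of 4. Slc40a1 and Hfe lie lowest and Fth1 and Lcn2 highest in the groups with hk S.E. at 20 h, and the DMSO, BaP and I3C groups with hk S.E. lie close together within a time.

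Activation with hk S.E. after DMSO changed most of these genes in both genotypes. In edgeR's quasi-likelihood test with adjusted p under 0.01, 5 of 9 were called at 3 h in Ahr+/+ BMMs, beside 56.6% of all genes tested, and 6 of 9 at 20 h, beside 58.6%. In Ahr-/- BMMs the counts were 5 of 9 (all genes 57.3%) and 6 of 9 (all genes 54.3%), so the shares of members called lay near those of all genes. Each called gene had the same direction in every activation contrast that called it. Slc11a2, Fth1 and Lcn2 rose and Slc40a1 and Hfe fell at both times, and Slc11a1 rose at 20 h. The median log2 fold change of all genes at 3 h in Ahr+/+ BMMs was -0.10 under TMM scaling and 0 under DESeq2's, and the members' median there was 0.11. In bulk RNA, fewer cells of a type and less RNA per cell cannot be told apart. Nothing in the labels says that a replicate number marks a mouse, so the p-values measure the spread between these libraries. That spread is estimated per gene over all 16 groups, so Ahr+/+ contrasts are also judged by the spread of Ahr-/- libraries. With hk S.E., the SD of Tfrc at 20 h was 6.24 CPM in Ahr+/+ and 28.6 CPM in Ahr-/- BMMs. That of Ireb2 at 3 h was 3.85 and 28.6 CPM.

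**Figure D3:**
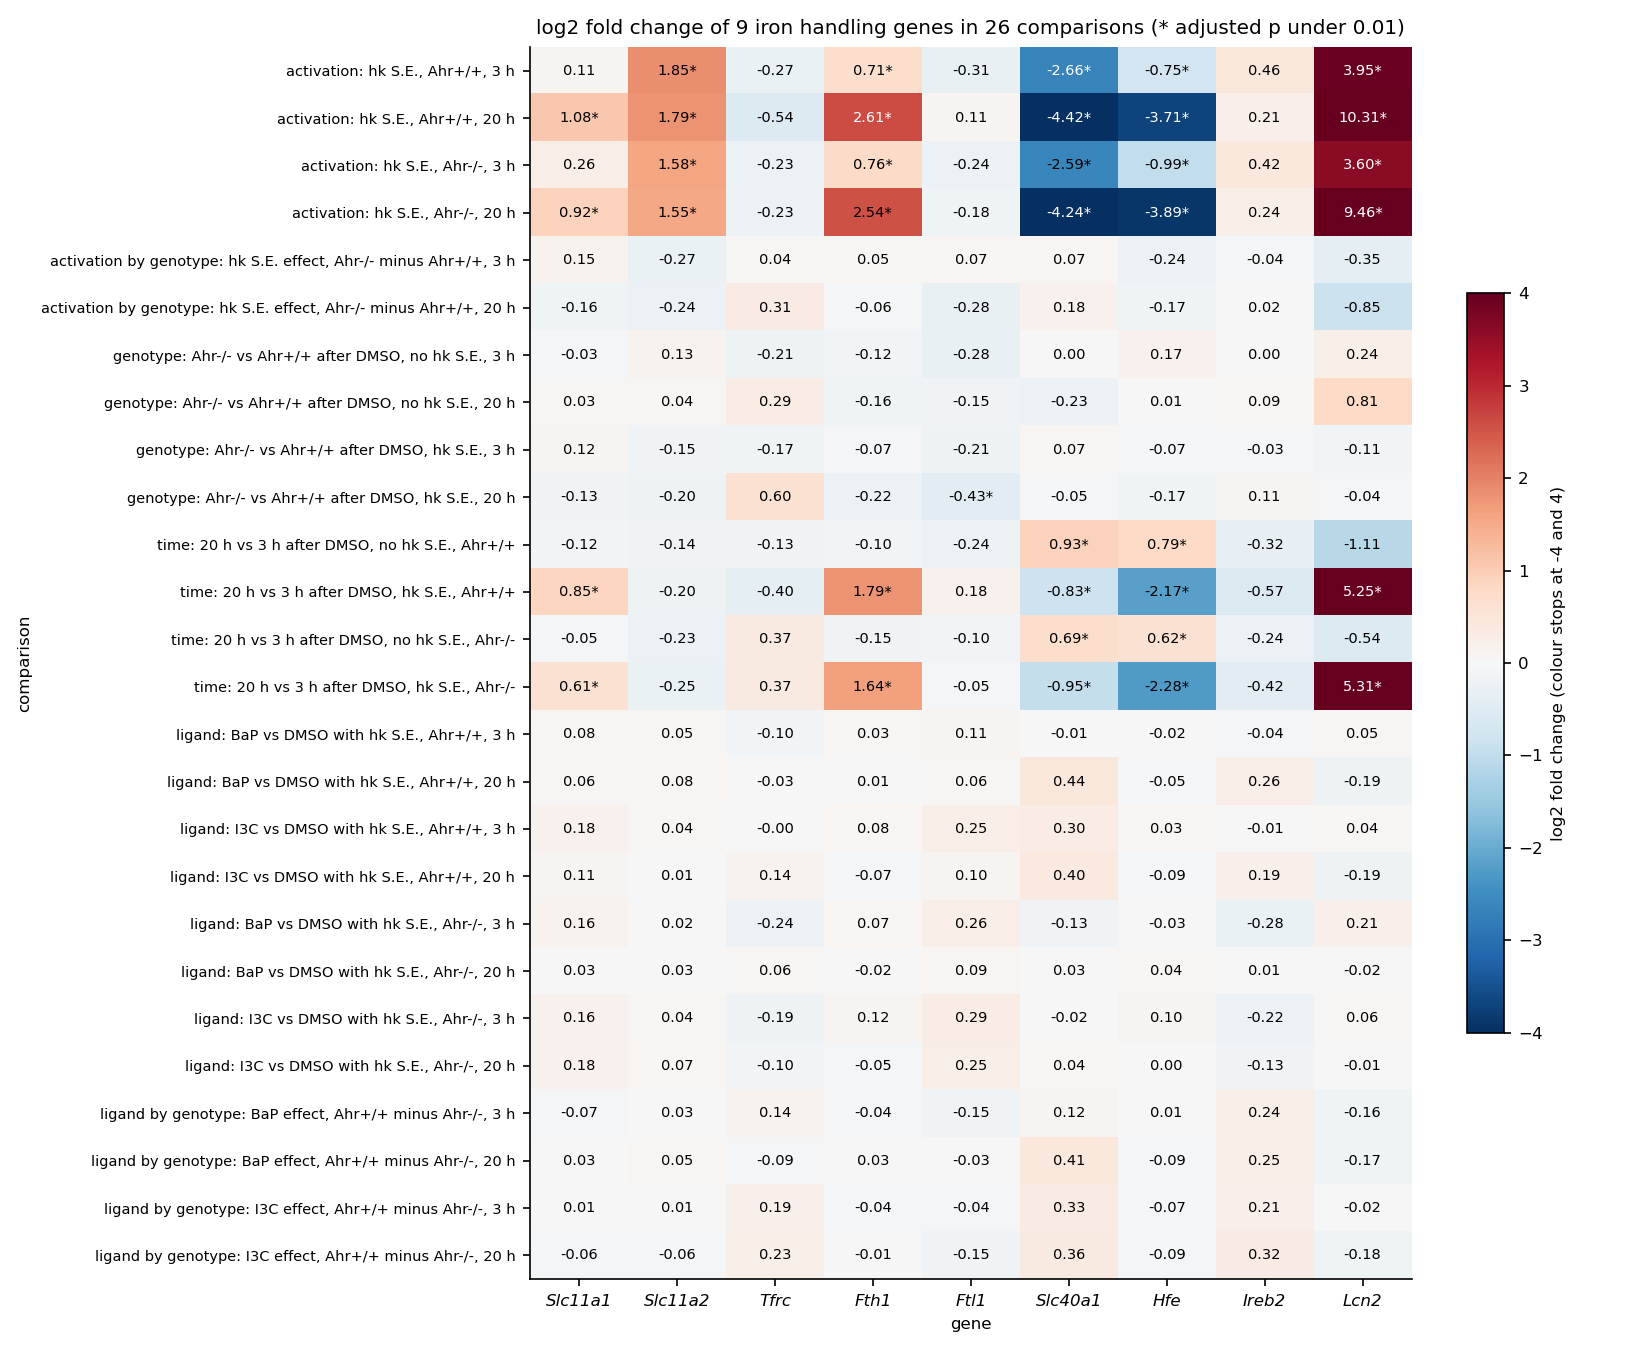
Log2 differences of the 9 iron genes (columns) in 26 comparisons (rows), as colours that stop at 4 in either direction, with an asterisk where adjusted p is under 0.01. Strong colours stand in the activation rows and the time rows with hk S.E., for Slc40a1, Hfe, Fth1, Lcn2 and Slc11a2, and the ligand rows hold no asterisk.

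Slc11a1 (chr1:74375195-74386062, plus strand) is the phagosomal transporter of macrophages. In Ahr+/+ BMMs at 20 h its level was 299, 313, 290.3 and 286 CPM in the 4 libraries with DMSO alone and 612, 656, 686 and 558 CPM with hk S.E. Every activated library lay above every library without hk S.E., a rise of 2.12-fold with a log2 fold change of 1.08 (SE 0.11, adjusted p = 1.98e-12). In Ahr-/- BMMs at 20 h the values were 300.2, 368, 272 and 275 CPM and 575, 674, 520.3 and 531 CPM, again without overlap, a rise of 1.89-fold (log2 0.92, SE 0.11, adjusted p = 2.8e-10). At 3 h the groups overlapped: Ahr+/+ libraries held 300.0, 276, 387 and 326 CPM without and 338, 330.5, 398 and 329 CPM with hk S.E., a log2 difference of 0.11 with a 95% interval of -0.11 to 0.34. In Ahr-/- BMMs the difference at 3 h was 0.26 (SE 0.11, adjusted p = 0.0358), short of the threshold under edgeR. It passed under DESeq2 and with the replicate number as a block, and fell to 0.15 (adjusted p = 0.24) without the Ahr-/- libraries numbered 1 and 2.

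Across all 16 groups Slc11a1 fell into 2 ranges. The lowest 4 were the groups without hk S.E., with means ± SD of 297 ± 11.8 CPM (Ahr+/+, 20 h), 304 ± 44.4 CPM (Ahr-/-, 20 h), 315 ± 53.8 CPM (Ahr-/-, 3 h) and 322 ± 47.8 CPM (Ahr+/+, 3 h). The 6 groups with hk S.E. for 3 h followed, at 349 ± 33.0 CPM with DMSO, 370.0 ± 26.8 CPM with BaP and 394 ± 31.7 CPM with I3C in Ahr+/+ BMMs and 378 ± 44.2, 421 ± 67.6 and 423 ± 53.4 CPM in Ahr-/- BMMs in that order. The 6 groups with hk S.E. for 20 h were highest, at 628 ± 55.8, 654 ± 48.8 and 680.1 ± 37.3 CPM in Ahr+/+ and 575 ± 70.2, 587 ± 54.9 and 650.1 ± 58.5 CPM in Ahr-/- BMMs (DMSO, BaP and I3C). Ordered by mean, the libraries of neighbouring groups overlapped at every step but one, the step from Ahr-/- I3C at 3 h (383 to 499 CPM) to Ahr-/- DMSO with hk S.E. at 20 h (520.3 to 674 CPM).

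Slc11a2 (chr15:100387898-100425072, minus strand), the endosomal relative of Slc11a1, rose at 3 h already. Ahr+/+ libraries held 58.6, 57.9, 74.7 and 67.3 CPM with DMSO alone and 237, 244, 218 and 232 CPM after 3 h of hk S.E., with every activated library far above the others (3.60-fold, log2 1.85 (SE 0.10, adjusted p = 6.85e-24)). At 20 h the values were 51.4, 59.0, 63.6 and 60.4 CPM against 219.9, 199, 189 and 203 CPM. The rise at 20 h was 3.46-fold in Ahr+/+ BMMs, and in Ahr-/- BMMs it was 2.98-fold at 3 h and 2.93-fold at 20 h. Slc11a2 was thus called at 3 h, when the Slc11a1 groups still overlapped and Slc11a1 was not called in either genotype.

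Tfrc (chr16:32608920-32632794, plus strand) brings in transferrin-bound iron and was not called in any activation contrast in the fit over all 16 groups. Ahr+/+ libraries at 20 h held 66.5, 64.6, 77.0 and 63.8 CPM with DMSO alone and 49.4, 53.2, 45.4 and 38.6 CPM with hk S.E. The 4 activated libraries all lay below the 4 others, with a log2 difference of -0.54 (SE 0.30, adjusted p = 0.106). This difference passed the threshold in the fit on only the groups compared (-0.57, adjusted p = 0.000134), with the replicate number as a block (-0.55, adjusted p = 0.00433) and with the length index as a covariate (-0.57, adjusted p = 1.13e-06). At 3 h the difference was -0.27 (SE 0.30, adjusted p = 0.451). In Ahr-/- BMMs the spread was wider than the difference: the libraries with hk S.E. at 20 h held 40.8, 51.7, 93.3 and 97.0 CPM and those without held 47.4, 46.3, 117 and 120.4 CPM, and in both groups the libraries numbered 1 and 2 were the low ones, with a length index below 0. Without the Ahr-/- libraries numbered 1 and 2, the activation difference of Tfrc in Ahr-/- BMMs was -0.32 (adjusted p = 0.0635) at 20 h and 0.08 (adjusted p = 0.695) at 3 h.

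Of the ferritin chains, the heavy chain rose and the light chain was not called. Fth1 (chr19:9980598-9985098, plus strand), whose product oxidises iron for storage, held 8405, 7538, 8606 and 8494 CPM with DMSO alone and 13554, 13398, 12721 and 14390.1 CPM with hk S.E. at 3 h in Ahr+/+ BMMs. At 20 h it held 7852, 7779, 7361 and 7756 CPM and 44997, 48481, 42129 and 51515 CPM. The groups did not overlap at either time, and the rise was 1.64-fold at 3 h (log2 0.71, SE 0.10, adjusted p = 6.25e-09) and 6.09-fold at 20 h (log2 2.61, SE 0.10, adjusted p = 2.64e-29). The rise in Ahr-/- BMMs was 1.69-fold and 5.83-fold. Ftl1 (chr7:45457944-45459884, minus strand), the light chain that favours formation of the iron core, held 10428, 11454, 11458 and 13310.0 CPM with DMSO alone and 12565, 11106, 12874 and 13648 CPM with hk S.E. at 20 h in Ahr+/+ BMMs, which overlap (log2 0.11, SE 0.12, adjusted p = 0.455). At 3 h its log2 difference was -0.31 (SE 0.12, adjusted p = 0.0242) in Ahr+/+ BMMs, and the values in Ahr-/- BMMs were -0.24 (SE 0.12, adjusted p = 0.0876) at 3 h, then -0.18 (SE 0.12, adjusted p = 0.205) at 20 h. The Ahr+/+ difference at 3 h passed the threshold with the replicate number as a block (-0.30, adjusted p = 0.00197), with the identifier series as a covariate (-0.43, adjusted p = 0.00854) and with the length index (-0.30, adjusted p = 2.24e-05). Without the Ahr-/- libraries numbered 1 and 2, the Ahr-/- difference at 3 h passed the threshold at -0.35 (adjusted p = 0.00461), where 53.4% of all genes did.

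The ratio of Fth1 to Ftl1 counts within a library, a measure chosen after the values had been seen and free of scaling between libraries, is given beside these levels. It was 0.753, 0.679, 0.642 and 0.583 in the Ahr+/+ libraries with DMSO alone at 20 h and 3.58, 4.37, 3.27 and 3.77 with hk S.E. In these groups the ratio lay below 1 in every library without hk S.E. and above 3 in every library with it, a 5.64-fold difference of the mean log ratio. At 3 h the means ± SD were 0.605 ± 0.0507 and 1.22 ± 0.0862 (2.02-fold), whereas Ahr-/- BMMs averaged 0.678 ± 0.0487 and 1.34 ± 0.105 at 3 h, and 0.661 ± 0.0664 and 4.34 ± 0.489 at 20 h (1.98-fold and 6.57-fold). In each of these 4 contrasts the groups did not overlap, and the exact two-sided permutation test gave p = 0.0286, the smallest that 4 against 4 libraries allow, or 0.0698 after adjustment over 22 comparisons. The same p was reached by the 2 contrasts of time with hk S.E. (3.06-fold in Ahr+/+ and 3.23-fold in Ahr-/- BMMs). In the Ahr-/- contrast of time, the identifier series of the libraries changed together with time. The same p was also reached by 3 ligand contrasts, in which the ratio was lower than with DMSO: I3C at 3 h in Ahr+/+ BMMs (0.885-fold), BaP at 3 h in Ahr-/- BMMs (0.882-fold) and I3C at 20 h in Ahr-/- BMMs (0.813-fold). The Ahr-/- ratios at 20 h were 0.696, 0.564, 0.711 and 0.672 with DMSO alone and 3.83, 4.45, 4.11 and 4.97 with hk S.E., so both pairs of library numbers lie on the same sides of 1. Together both ferritins took 2.45 to 2.68% of all gene counts in Ahr+/+ BMMs with DMSO alone at 20 h and 5.70 to 6.42% with hk S.E. The Ftl1 copies Ftl1-ps1, annotated as protein-coding despite its name, and Ftl1-ps2 and Ftl2-ps, annotated as processed pseudogenes, together held 0.396 to 0.906% of the Ftl1 count and the pseudogenes of Fth1 at most 0.00622% of the Fth1 count. Reads of parent gene and copy can be confused in such families. The reads on entries naming no gene were not searched for them, so these shares do not bound the uncertainty of Ftl1 or of the ratio.

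**Figure D4:**
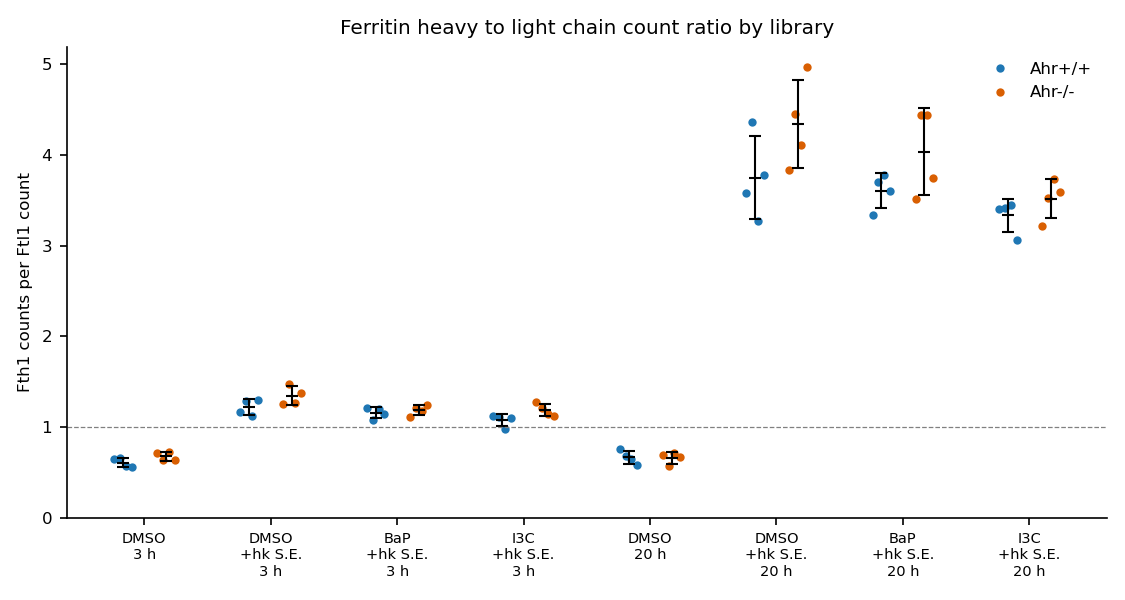
Ratio of Fth1 to Ftl1 counts in each library (points) by group, with the mean ± SD of 4 libraries. The groups without hk S.E. lie below 1, those with hk S.E. for 3 h have means above 1, with 1 library of the Ahr+/+ I3C group at 0.983 and with means of 1.22 and 1.34 after DMSO in Ahr+/+ and Ahr-/- BMMs, and those with hk S.E. for 20 h lie highest, with means of 3.75 and 4.34.

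Slc40a1 (chr1:45908068-45926523, minus strand), which encodes the sole known iron exporter of mammalian cells, fell strongly. In Ahr+/+ BMMs it held 60.7, 62.3, 52.0 and 53.5 CPM with DMSO alone and 8.78, 10.2, 10.3 and 6.72 CPM with hk S.E. at 3 h. At 20 h the values were 108, 137, 82.1 and 108 CPM and 7.19, 4.82, 4.49 and 4.09 CPM. No activated library reached the lowest library without hk S.E., and the level was 6.33 times lower at 3 h (log2 -2.66, SE 0.19, adjusted p = 3.99e-18) and 21.4 times lower at 20 h (log2 -4.42, SE 0.20, adjusted p = 1.93e-26). Ahr-/- BMMs showed the same direction, with levels 6.04 and 18.8 times lower. Without the Ahr-/- libraries numbered 1 and 2 the Ahr-/- log2 fold changes were -2.26 (adjusted p = 2.26e-13) and -4.13 (adjusted p = 2.95e-21).

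Hfe (chr13:23702034-23710854, minus strand) also fell, mostly between 3 and 20 h. Its level in Ahr+/+ BMMs was 52.9, 59.0, 54.8 and 57.0 CPM with DMSO alone and 28.7, 38.4, 31.5 and 34.3 CPM with hk S.E. at 3 h. At 20 h it was 90.0, 109, 88.9 and 98.1 CPM and 7.01, 7.32, 8.77 and 6.43 CPM. The groups were apart at both times, by 1.68 times at 3 h (log2 -0.75, SE 0.11, adjusted p = 2.08e-08) and 13.1 times at 20 h (log2 -3.71, SE 0.12, adjusted p = 2.89e-33). With hk S.E. the Ahr-/- level was 1.98 and 14.8 times lower, and Hfe is one of the genes that moved little with the length index.

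Ireb2 (chr9:54863789-54912530, plus strand), the iron sensor that binds the stem-loops above, was not called in any activation contrast in the fit over all 16 groups. It held 63.8, 80.8, 43.0 and 66.6 CPM with DMSO alone and 86.4, 93.2, 85.7 and 84.8 CPM with hk S.E. at 3 h in Ahr+/+ BMMs. The activated libraries were the higher ones and kept close together, and the log2 difference was 0.46 (SE 0.31, adjusted p = 0.19) with a 95% interval of -0.16 to 1.08. It passed the threshold in the fit on only the groups compared (0.54, adjusted p = 0.00471) and with the length index as a covariate (0.49, adjusted p = 1.48e-06). Ahr-/- libraries at 3 h held 86.8, 32.1, 68.2 and 68.1 CPM and 59.7, 61.9, 113 and 107 CPM, where the groups overlap (log2 0.42, SE 0.31, adjusted p = 0.229). Without the libraries numbered 1 and 2 in Ahr-/- groups, this difference was 0.69 (adjusted p = 0.000122), and with the index as a covariate it was 0.44 (adjusted p = 1.32e-05). IRP2 is known to be controlled mainly through the stability of the protein, which these counts do not measure.

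Lcn2 (chr2:32384633-32388252, minus strand), which keeps iron from bacteria by binding their siderophore, had the largest rise of the 9. Ahr+/+ libraries held 3.70, 2.88, 5.62 and 2.04 CPM with DMSO alone and 58.3, 57.2, 67.5 and 35.2 CPM after 3 h of hk S.E. At 20 h they held 1.57, 1.07, 2.73 and 1.39 CPM and 1819, 2397, 2048 and 2012 CPM. The activated libraries at 20 h lay orders of magnitude above those without hk S.E., and the rise was 15.5-fold at 3 h (log2 3.95, SE 0.37, adjusted p = 8.64e-14) and 1268-fold at 20 h (log2 10.31, SE 0.47, adjusted p = 1.46e-26). The Ahr-/- groups rose 12.2-fold and 703-fold. Lcn2 is also made by neutrophils, and the 10 neutrophil markers, of which 6 were tested, summed to 15.8 to 44.3 CPM with DMSO alone and 112 to 261 CPM with hk S.E. at 3 h, but to 12.9 to 34.1 and 22.6 to 40.2 CPM at 20 h in Ahr+/+ BMMs. Over all libraries Ly6g, Mpo and Elane reached at most 0.481, 0.274 and 0.197 CPM and Retnlg, Cxcr2 and Camp at most 0.803, 0.562 and 5.29 CPM, while Ltf reached 27.7, Ngp 56.4, S100a8 72.9 and S100a9 111 CPM. The part of such cells in the Lcn2 values was not tested.

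The activation differences in Ahr-/- BMMs not yet given without the libraries numbered 1 and 2 were as follows in that setting. Slc11a2 differed by 1.282 (adjusted p = 1.97e-14) at 3 h and 1.53 (adjusted p = 7.9e-17) at 20 h. Fth1 stood at 0.61 (adjusted p = 6.89e-08) and 2.61 (adjusted p = 3.78e-26), and Hfe at -0.89 (adjusted p = 1.58e-07) and -3.98 (adjusted p = 1.52e-25). For Lcn2 the values were 3.06 (adjusted p = 4.06e-13) and 9.73 (adjusted p = 5.72e-27). At 20 h Slc11a1 stood at 0.94 (adjusted p = 7.75e-10), Ftl1 at -0.10 (adjusted p = 0.448) and Ireb2 at 0.24 (adjusted p = 0.164). These kept the direction and the side of the threshold that they had with all libraries.

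No difference in the activation response between genotypes passed the threshold. None of the 9 genes was called for the difference between the Ahr-/- and Ahr+/+ responses at 3 h (all genes 0.0138%) or at 20 h (all genes 4.42%). Of these 18 tests, 1 had an unadjusted p under 0.05, that of Slc11a2 at 3 h, with a difference of -0.27 (SE 0.13, adjusted p = 0.833). For Slc11a1 the difference was 0.15 at 3 h (95% interval -0.17 to 0.46) and -0.16 at 20 h (-0.48 to 0.16). For Lcn2 at 20 h it was -0.85, with a wide interval of -1.86 to 0.16. DESeq2 also called none of the 9. Without the Ahr-/- libraries numbered 1 and 2 the values moved: the difference of Slc11a2 at 3 h became -0.57 (adjusted p = 0.0219, unadjusted p = 4.87e-05), that of Lcn2 at 3 h -0.90 (adjusted p = 0.341) and that of Slc11a1 at 3 h 0.04 (adjusted p = 0.983), and the smallest adjusted p of the 18 was that of Slc11a2.

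Between Ahr-/- and Ahr+/+ BMMs under the same treatment, 1 of 36 tests passed the threshold. That was Ftl1 with hk S.E. at 20 h, among 12.5% of all genes called there. Ahr+/+ libraries held 12565, 11106, 12874 and 13648 CPM and Ahr-/- libraries 10772, 10235, 8474 and 7731 CPM, so every Ahr-/- library lay below every Ahr+/+ library, with a log2 difference of -0.43 (SE 0.12, adjusted p = 0.00771). The call was lost when any one of 5 of the 8 libraries was left out, namely Ahr+/+ replicates 1, 3 and 4 and Ahr-/- replicates 3 and 4. All 4 of these Ahr+/+ libraries carry labels of 1 series of library identifiers and all 4 Ahr-/- libraries those of another, so genotype and series cannot be told apart within this contrast. With the series as a covariate, estimated from the other groups, the difference was -0.22 (adjusted p = 0.484). Slc11a2 did not overlap there either, at 219.9, 199, 189.5 and 203 CPM in Ahr+/+ against 159, 173, 189.2 and 185 CPM in Ahr-/- BMMs. Its groups all but met, at 189.5 and 189.2 CPM, and its difference of -0.20 (SE 0.09, adjusted p = 0.126) missed the threshold. Such separation of both groups held for 20.4% of all genes there. None of the 9 was called with DMSO alone at 3 h (all genes 1.21%) or 20 h (all genes 0.702%) or with hk S.E. at 3 h (all genes 2.83%), and over the 36 tests 5 had an unadjusted p under 0.05. DESeq2 also called none in these 3 contrasts. The log2 differences of Slc11a1 were -0.03 and 0.03 with DMSO alone and 0.12 and -0.13 with hk S.E., at 3 and 20 h, with 95% intervals reaching from -0.35 to 0.34.

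The genotype comparison depended on which Ahr-/- libraries entered. Without those numbered 1 and 2, a setting added after the data had been seen, 4 of the 9 were called with DMSO alone at 20 h (all genes 13%) and 5 with hk S.E. at 20 h (all genes 22%). With DMSO alone Tfrc was then higher in Ahr-/- BMMs by 0.81 (adjusted p = 1.89e-05) and Ireb2 by 0.55 (adjusted p = 0.0016), while Fth1 differed by -0.36 (adjusted p = 0.000693) and Ftl1 by -0.43 (adjusted p = 0.00109). With hk S.E. the values were 1.03 (adjusted p = 1.12e-07) for Tfrc, 0.57 (adjusted p = 0.000589) for Ireb2, -0.35 (adjusted p = 0.000426) for Fth1, -0.63 (adjusted p = 3.6e-06) for Ftl1 and -0.64 (adjusted p = 0.0076) for Lcn2. The libraries kept in that setting had a length index above 0 (0.0025 to 0.29), and of the genes that moved with the index Slc40a1 and Slc11a1 were not called there. With all libraries and the index as a covariate, itself built from deviations from group means, the differences with hk S.E. at 20 h were 0.53 for Tfrc, 0.02 for Ireb2, -0.23 for Fth1, -0.44 for Ftl1 and -0.16 for Lcn2, of which Tfrc, Fth1 and Ftl1 passed the threshold. Slc11a1, Slc11a2, Slc40a1 and Hfe were not called in any genotype contrast in either setting.

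Over time without hk S.E., Slc40a1 and Hfe rose between 3 and 20 h in both genotypes, and these were the 2 of 9 called (all genes 6.07% in Ahr+/+ and 6.98% in Ahr-/- BMMs). The rise of Slc40a1 was 0.93 (SE 0.17, adjusted p = 0.000121) in Ahr+/+ and 0.69 (SE 0.17, adjusted p = 0.00365) in Ahr-/- BMMs on the log2 scale. That of Hfe was 0.79 (SE 0.11, adjusted p = 2.83e-07) and 0.62 (SE 0.11, adjusted p = 1.95e-05). The Slc40a1 call in Ahr-/- BMMs was lost when DMSO-only replicate 2, 3 or 4 at 3 h or replicate 3 at 20 h was left out. It was also lost with the identifier series as a covariate (0.55, adjusted p = 0.11) and in the fit on only the groups compared (0.68, adjusted p = 0.0242). Replicates 2, 3 and 4 at 3 h carry another identifier series than the libraries at 20 h. The Slc40a1 rise was 0.79 (adjusted p = 0.00117) without all Ahr-/- libraries numbered 1 and 2. Fth1 (-0.35, adjusted p = 0.00498), Tfrc (0.81, adjusted p = 0.000184) and Lcn2 (-1.48, adjusted p = 0.00157) also passed there (all genes 7.01%). The libraries kept in that contrast differed in length index, at 0.0025 and 0.036 at 3 h and 0.29 and 0.23 at 20 h. Fth1, Tfrc and Lcn2 are among the genes that moved with the index, so time and index cannot be told apart for them there. The direction of Slc40a1 and Hfe was opposite with hk S.E. present.

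With hk S.E., 5 of 9 changed between 3 and 20 h in Ahr+/+ BMMs (all genes 59.5%) and the same 5 in Ahr-/- BMMs (all genes 56%). In Ahr-/- BMMs all libraries of the 3 h group carry 1 series of library identifiers and all of the 20 h group another. Time and series thus cannot be told apart within the Ahr-/- contrast. Lcn2 rose further, by 5.25 (SE 0.37, adjusted p = 1.9e-18) in Ahr+/+ and 5.31 (SE 0.37, adjusted p = 1.49e-18) in Ahr-/- BMMs on the log2 scale. Fth1 rose by 1.79 (SE 0.10, adjusted p = 1.21e-22) and 1.64 (SE 0.10, adjusted p = 5.06e-21), and Slc11a1 by 0.85 (SE 0.11, adjusted p = 2.32e-09) and 0.61 (SE 0.11, adjusted p = 4.44e-06). Hfe changed by -2.17 (SE 0.12, adjusted p = 1.57e-23) and -2.28 (SE 0.12, adjusted p = 2.87e-24), and Slc40a1 by -0.83 (SE 0.20, adjusted p = 0.000241) and -0.95 (SE 0.19, adjusted p = 2.72e-05). Slc11a2 stood at -0.20 and -0.25, short of the threshold under edgeR (adjusted p = 0.0575 and 0.0166) and past it under DESeq2. When the Ahr-/- libraries numbered 1 and 2 were left out, the Ahr-/- values were 5.19 (adjusted p = 5.23e-21) for Lcn2, 1.65 (adjusted p = 9.17e-20) for Fth1, 0.63 (adjusted p = 4.14e-06) for Slc11a1, -2.36 (adjusted p = 9.88e-18) for Hfe and -1.08 (adjusted p = 3.06e-05) for Slc40a1, and Slc11a2 stood at -0.02 (adjusted p = 0.886).

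No iron gene passed the threshold after a ligand. Against DMSO with hk S.E., none of 72 tests (9 genes, 2 ligands, 2 times, 2 genotypes) was called. Under edgeR, Nqo1, which the paper reports as raised by both ligands, was not called in the Ahr+/+ contrasts either. In Ahr+/+ BMMs the shares of all genes called were 0.0482% and 0.234% for BaP and 0.131% and 0.509% for I3C at 3 and 20 h. These were 7, 34, 19 and 74 genes. In Ahr-/- BMMs the shares were 0.0275%, 0.0138%, 0.0206% and 0.206% in the same order. At the same threshold the paper, with DESeq2, reports more receptor-dependent genes for each ligand and time, most of all for BaP at 20 h. The lack of calls among the iron genes thus comes from a test that called few genes of any kind. Unadjusted p was under 0.05 in 6 of the 72, the smallest adjusted p was 0.391, and DESeq2 also called none. The log2 differences lay between -0.28 and 0.44 with 95% intervals inside -0.90 and 0.88. Slc11a1 differed from DMSO in Ahr+/+ BMMs by 0.08 (95% interval -0.14 to 0.31) with BaP and 0.18 (-0.05 to 0.40) with I3C at 3 h. At 20 h the values were 0.06 (-0.17 to 0.28) and 0.11 (-0.11 to 0.34).

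Slc40a1 had the largest of these ligand differences. At 20 h in Ahr+/+ BMMs it held 7.19, 4.82, 4.49 and 4.09 CPM with DMSO, 7.93, 7.08, 5.91 and 6.73 CPM with BaP and 8.24, 5.95, 6.26 and 6.46 CPM with I3C, all with hk S.E. The ligand libraries overlap the DMSO libraries through 1 DMSO library, replicate 1, and the differences were 0.44 (SE 0.19, adjusted p = 0.391) and 0.40 (SE 0.20, adjusted p = 0.836), which share their DMSO libraries. The same contrasts in Ahr-/- BMMs gave 0.03 and 0.04. Ftl1 after I3C at 3 h did not overlap DMSO in Ahr+/+ BMMs, at 12605, 12669.8, 13280.1 and 14357 CPM against 11602, 10401, 11319.6 and 11108 CPM (0.25, SE 0.12, adjusted p = 0.948), and its value in Ahr-/- BMMs was 0.29 (SE 0.12, adjusted p = 0.653). After BaP at 3 h Ftl1 held 11880.2, 12184, 11948 and 11884 CPM in Ahr+/+ BMMs, also above all 4 DMSO libraries, with a difference of 0.11 (SE 0.12, adjusted p = 1). Groups did not overlap for 6.14% of all genes with I3C and 3.91% with BaP at 3 h in Ahr+/+ BMMs. For none of 36 tests did a ligand effect differ between genotypes past the threshold, and none of the 36 had an unadjusted p under 0.05. The shares of all genes were 0.0138% for BaP at 3 h and 0% in the other contrasts. Ahrr, read as a check, passed in this test for BaP at 3 h only. BaP and I3C were given at different doses, 1 and 10 µM, so their values stand side by side without a comparison.

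The receptor binds the core AHRE I, so the letters GCGTG were sought on both strands of RefSeq promoter windows of 300 bases (GRCm38.p6, 250 before and 50 after the start). Windows were held for 7 of the 9 genes, in 9 windows together, and 4 of these 7 genes (Slc11a1, Fth1, Ftl1 and Tfrc) contained the letters. The letters stood in 32.39% of all 32851 windows, a share of windows and not of genes. The matches of Slc11a1 and of both ferritins are shown. Those of Tfrc, which held the most matches of the members, are not printed. Capitals mark the match on the gene's strand.
Slc11a1, chr1:74375193-74375213: tgggaaggGCGTGggttccca
Fth1, chr19:9982588-9982608: ttgggcaaCACGCccacagga
Ftl1, chr7:45459921-45459941: ctccgcctCACGCcaccgccg

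A match of 5 letters is a description and not a binding site. The intervals given above span all members together, so they cannot separate genes with the letters from genes without. No member was called after a ligand, and the part of the letters was not tested.

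A list of 59 further genes of iron and heme handling, grouped by role, was read in the same fits, and 46 of them were tested. Among those not tested were hepcidin (Hamp, Hamp2), the hephaestins (Heph, Hephl1), Tfr2, Cd163 and Hpx. With hk S.E. in Ahr+/+ BMMs 17 of the 46 rose and 15 fell at 3 h, and 16 rose and 16 fell at 20 h, which is 69.6% called at each time beside 56.6% and 58.6% of all genes. Ahr-/- BMMs had 16 higher and 13 lower at 3 h, and 15 higher and 16 lower at 20 h. Of all genes, 24.2% rose and 32.3% fell at 3 h and 29.9% rose and 28.7% fell at 20 h in Ahr+/+ BMMs, against 25.5% and 31.8%, then 28.3% and 26% in Ahr-/- BMMs. The median log2 fold change of the list was 0.03 and 0.15 in Ahr+/+ BMMs, beside -0.10 and -0.00077 for all genes. The list thus held about as many genes that fell as that rose. None of its 46 genes was called for genotype, for the difference in response between genotypes or for a ligand.

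In the uptake and endosome role, 2 of 8 tested genes rose and 2 fell at 3 h, and 3 rose and 4 fell at 20 h in Ahr+/+ BMMs. Slc39a14, the importer ZIP14, rose by 2.36 (SE 0.15, adjusted p = 1.59e-20) on the log2 scale at 3 h, while the endosomal ferrireductase Steap3 changed by -1.43 (SE 0.11, adjusted p = 1.11e-17) at 3 h and by -2.78 (SE 0.11, adjusted p = 3.7e-29) at 20 h. Transferrin (Trf) changed by -3.86 (SE 0.22, adjusted p = 3.89e-22) at 20 h, and in Ahr-/- BMMs the importer Slc39a8 by -2.12 (SE 0.21, adjusted p = 3.26e-13) at 20 h. The response of Slc39a8 was not called as different between genotypes. Steap4, a plasma membrane ferrireductase, had no count in any library with DMSO alone and 0.388 to 1.24 CPM with hk S.E. at 3 h in Ahr+/+ BMMs, at least 28.6-fold higher against a floor of 3 counts over the group, and at least 16.6-fold higher in Ahr-/- BMMs. In the storage and delivery role all 3 tested genes were called at both times. The iron chaperones Pcbp1 and Pcbp2 rose by 0.38 and 0.46 at 3 h and 0.78 and 0.42 at 20 h, and Ncoa4, the receptor that delivers ferritin to lysosomes, changed by -0.90 (SE 0.10, adjusted p = 4.64e-12) and -0.80 (SE 0.09, adjusted p = 1.15e-10).

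Ceruloplasmin (Cp), a ferroxidase that works with ferroportin, was the single tested gene of the export and hepcidin role and rose by 5.33 (SE 0.22, adjusted p = 6.3e-29) at 3 h and by 6.20 (SE 0.21, adjusted p = 2.26e-32) at 20 h, opposite to Slc40a1. Among 6 iron sensing genes, 2 rose and 2 fell at 3 h and 2 rose and 4 fell at 20 h. The hypoxia-inducible factor gene Hif1a rose by 1.40 and 1.52, while its relative Epas1 changed by -0.96 and -5.52 (SE 0.33, adjusted p = 2.95e-21). Fbxl5, part of the ligase that degrades IRP2, rose by 0.91 (SE 0.16, adjusted p = 2.17e-06) at 3 h, and Bach1, the heme-sensing repressor, changed by -1.27 (SE 0.27, adjusted p = 3.58e-05) at 20 h. Nfe2l2, the activator NRF2, rose by 0.60 (SE 0.12, adjusted p = 2.01e-05) at 3 h in Ahr-/- BMMs, with no call for a difference in response between genotypes.

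Of 12 tested heme genes, 3 rose and 6 fell at 3 h and 5 rose and 4 fell at 20 h in Ahr+/+ BMMs. Haptoglobin (Hp), which binds free hemoglobin, rose by 5.89 (SE 0.33, adjusted p = 8.02e-23) at 20 h, and Spic, a transcription factor of heme-recycling macrophages, by 1.20 (SE 0.38, adjusted p = 0.0048) at 3 h and by 4.92 (SE 0.21, adjusted p = 1.56e-27) at 20 h. The heme exporter Flvcr1 changed by -1.65 (SE 0.31, adjusted p = 4.48e-06) at 3 h. Its relative Flvcr2 was called at both times but lay at 0.00 to 0.0493 CPM with DMSO alone and 0.0692 to 0.703 CPM with hk S.E. at 3 h, and at 0.00 to 0.0349 and 1.19 to 2.01 CPM at 20 h, so no fold is given. In Ahr-/- BMMs the folate and heme importer Slc46a1 changed by -1.18 (SE 0.16, adjusted p = 6.06e-09) at 3 h, with no call for a difference in response between genotypes. Heme oxygenase 1 (Hmox1), which frees iron from heme and was named after its values had been seen, changed by -0.68 (SE 0.15, adjusted p = 9.37e-05) at 3 h and by 2.35 (SE 0.16, adjusted p = 2.05e-19) at 20 h.

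Among 10 genes of mitochondrial iron and heme synthesis, 3 rose and 4 fell at 3 h and 1 rose and 1 fell at 20 h. Slc25a37 (mitoferrin 1) rose by 1.70 (SE 0.09, adjusted p = 4.94e-23) and 2.72 (SE 0.10, adjusted p = 1.85e-31), and Alas1, the first enzyme of heme synthesis, and Slc25a28 (mitoferrin 2) rose at 3 h by 1.24 and 0.63. Ferrochelatase (Fech), the last enzyme of heme synthesis, changed by -0.59 (SE 0.08, adjusted p = 8.11e-09) at 20 h. In the siderophore and nutritional immunity role, 4 of 6 rose and none fell at 3 h and 2 rose and 2 fell at 20 h, with an unadjusted p under 0.05 for 5 of 6 at each time. Acod1, which makes itaconate, rose by 7.69 (SE 0.26, adjusted p = 8.75e-33) and 9.74 (SE 0.28, adjusted p = 1.98e-35). S100a8 and S100a9, subunits of the metal-binding calprotectin, rose at 3 h by 2.52 and 2.79, and lactoferrin (Ltf) changed by -1.80 (SE 0.43, adjusted p = 0.000212) at 20 h. These 3 are also neutrophil markers, whose sums are given beside Lcn2. Slc22a17, named as a receptor of lipocalin 2, lay at 0.182 to 0.565 CPM with DMSO alone and 0.00 to 0.0314 CPM with hk S.E. at 20 h.

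**Figure D5:**
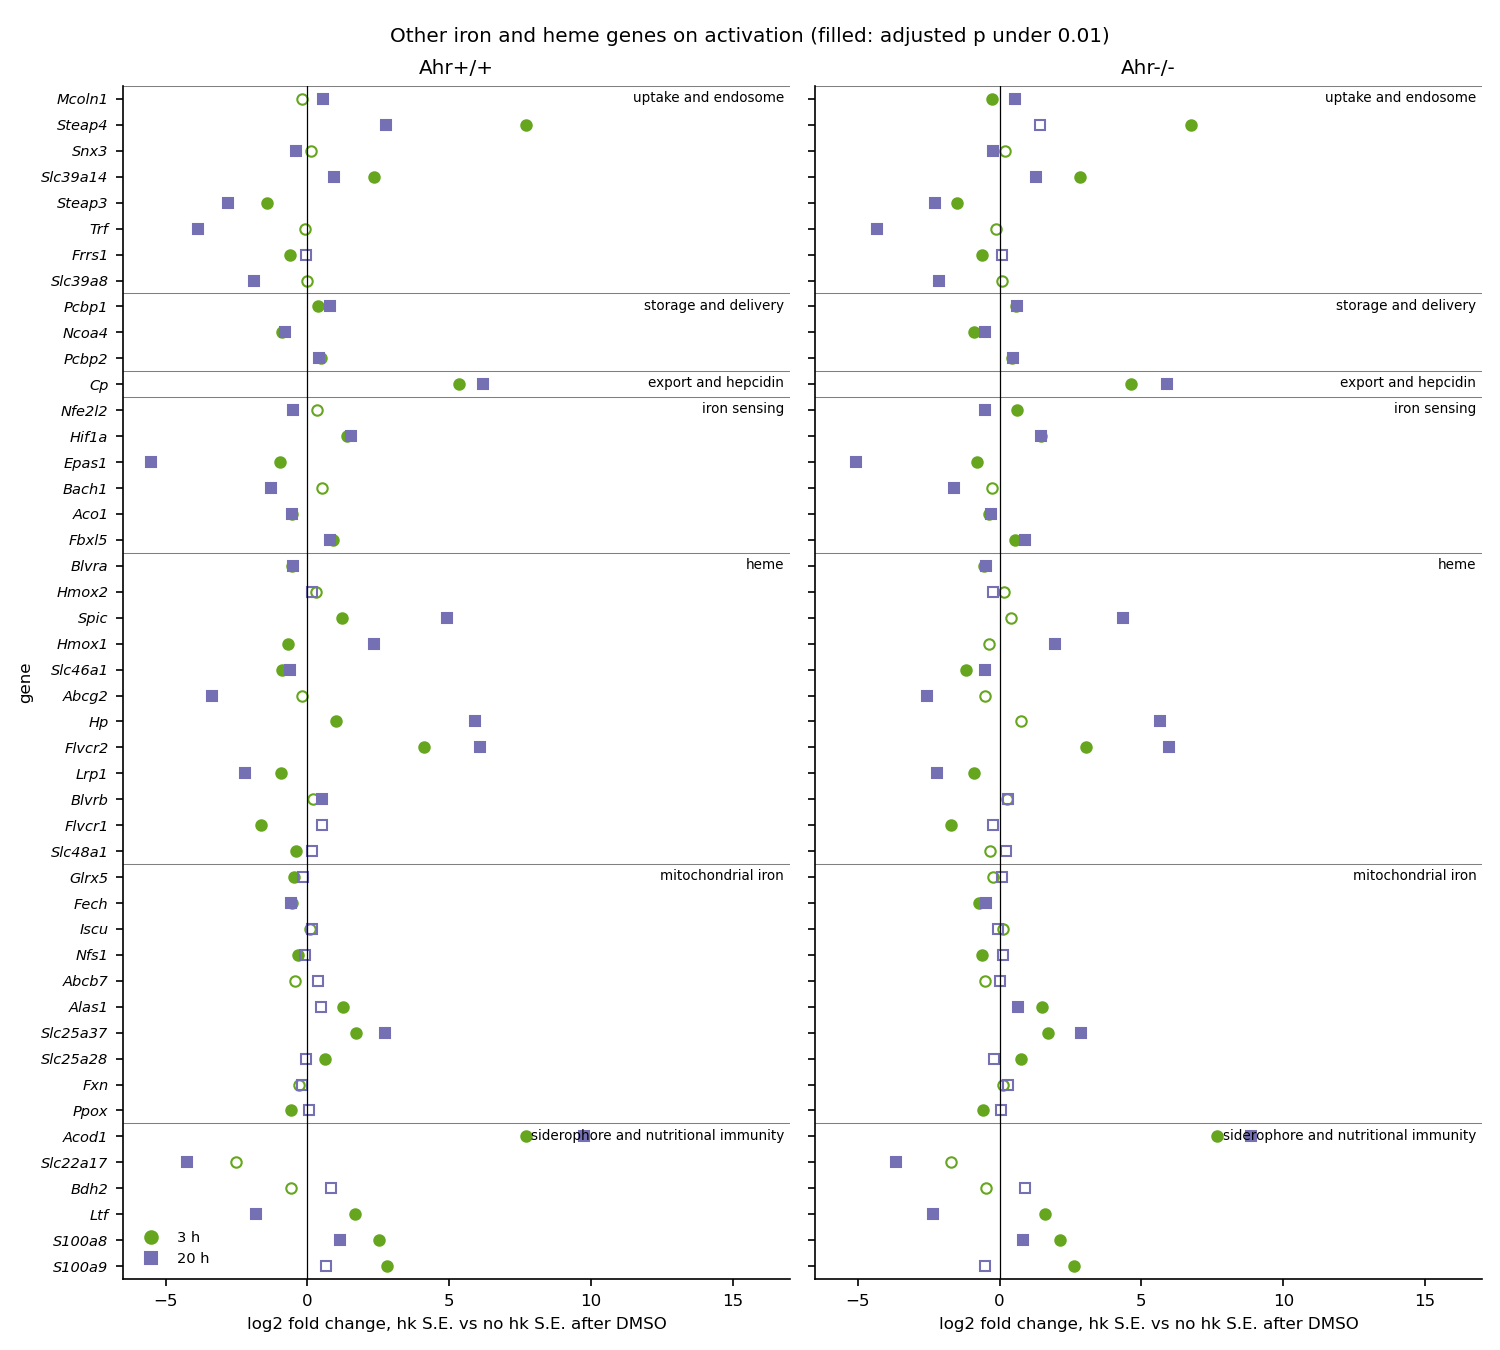
Log2 fold changes with hk S.E. of the 46 tested iron and heme genes, by role, in the 4 activation contrasts, with filled points where adjusted p is under 0.01. Cp, Acod1 and Slc25a37 lie right of 0 in all 4 contrasts and Steap3, Epas1 and Ncoa4 left of it.

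Over the 16 group means of log2 CPM, each member's pattern was compared with that of every other tested gene by Pearson's r, as a description over group means that share libraries and scaling. Most like Slc11a1 were Nmt1 (r = 0.992), Nfe2l1 (0.992) and Leng9 (0.986), and most like Slc11a2 were Nos2 (0.997), Dtwd1 (0.996) and Gm6377 (0.996). C5ar2 (0.994) stood nearest to Slc40a1, Adgb (0.996) to Fth1, Saa3 (0.998) to Lcn2 and Nxpe5 (0.996) to Hfe. For the members not called in any activation contrast, the nearest patterns were Ftl1-ps1 for Ftl1 (0.969, a copy that may share its reads), Tmem237 for Tfrc (0.919) and Arih1 for Ireb2 (0.988). Among the members, Slc11a1 had r = 0.98 with Fth1, 0.97 with Lcn2 and -0.98 with Hfe.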

How the data were processed

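RNA from 64 BMM libraries was sequenced from TruSeq stranded mRNA preparations. The authors used bcl2fastq 2.19.0.316, trimmed adapters, aligned reads with HISAT2 2.1.0 to mm10 and deposited read counts per gene from htseq-count (HTSeq 0.9.1, reverse strand). The 5 entries naming no gene (19.2 to 25.1% of counts) were left out, and the table of variance-stabilised values was not used. Counts were tested with edgeR 4.0.16 (R 4.3.3, limma 3.58.1): TMM, filterByExpr with a minimum count of 10, 16 group means over all libraries, quasi-likelihood F tests, Benjamini-Hochberg adjustment over 14537 genes and a threshold of 0.01 (48 residual degrees of freedom). Intervals are at 95%. Groups do not overlap when every library of one exceeds every library of the other in CPM. The direct contrast of BaP with I3C is not reported, since doses differ. Alternatives were DESeq2 1.42.0, other scaling, filters, covariates and left-out libraries. The scripts were tested on simulated data. The 9 genes and the lists were chosen with earlier results of these data known. All 9 are named, and of the list of 59 a selection per role, picked after their changes on activation had been seen. Same-numbered libraries deviated together in 30 of 32 pairs of Ahr-/- groups (r over 0.1, range -0.21 to 0.64) but in 26 of 40 pairs of Ahr+/+ groups, and the labels do not say that a number marks a mouse.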

Additional observations from a re-analysis of the deposited data

Results flagged for a closer look

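In 5 of 144 sets of 4 libraries (9 genes in 16 groups), 1 library lay far from the other 3 by Dixon's criterion (the gap to the nearest library over the range of the group), which chance alone gives in about 1 of 20 sets. Tfrc, the transferrin receptor, was 59.0 CPM in replicate 3 of the Ahr+/+ BaP group at 20 h, against 39.7 to 42.2 CPM in the other libraries of the group. Slc11a1 was 398 CPM in replicate 3 of the Ahr+/+ group with DMSO and hk S.E. at 3 h (329 to 338 CPM in the others), and 409.8 CPM in replicate 3 of the Ahr+/+ BaP group at 3 h (352 to 361 CPM in the others). Ireb2 was 92.9 CPM in replicate 2 of that BaP group (82.4 to 83.6 CPM in the others). Slc40a1 was 103 CPM in replicate 3 of the Ahr-/- group with DMSO alone at 20 h, against 88.4 to 90.5 CPM in the others. Of these 5, 1 lies in an Ahr-/- library. No member's response differed between genotypes past the threshold.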

How the results depend on the processing

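Over all alternatives 4626 values of the 9 genes were recomputed. Of these 4557 kept their direction and side of the threshold, 14 lost the threshold, 55 gained it and none of the 4626 reversed. Of 594 activation values none lost the threshold. With the length index as a covariate, an alternative added after seeing the data, the members called were 8 for activation at 3 h in Ahr-/- BMMs, 1 and 3 for genotype with DMSO alone at 3 h and hk S.E. at 20 h, 5 and 8 for time without and with hk S.E. in Ahr+/+ BMMs, and 1 for I3C at 3 h in Ahr-/- BMMs (Ftl1, 0.30). The index also added Ftl1 and Ireb2 at 3 h and Tfrc at 20 h to the activation calls in Ahr+/+ BMMs. For time with hk S.E. in Ahr-/- BMMs it added Tfrc (0.33, adjusted p = 0.00303, edgeR) and Ireb2 (-0.48, adjusted p = 2.22e-06). Without the Ahr-/- libraries numbered 1 and 2, also added, they were 7 for activation at 3 h in Ahr-/- BMMs (Ftl1 and Ireb2 gained), 4 and 5 for genotype at 20 h without and with hk S.E. and 5 for time without hk S.E. in Ahr-/- BMMs. The Ftl1 genotype call at 20 h left 0 members called with no filter on low counts, with a fit on only the groups compared and with a covariate for the identifier series of the libraries. The fit on only the groups compared added Ireb2 at 3 h and Tfrc at 20 h to the activation calls in Ahr+/+ BMMs, called 8 for time with hk S.E. in Ahr+/+ BMMs, and that fit and the identifier series called 1 for time without hk S.E. in Ahr-/- BMMs. The cause of these changes was not tested.

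Leaving out 1 library at a time gave 5 to 6, 6 to 6, 5 to 6 and 6 to 6 members called for activation (Ahr+/+ at 3 and 20 h, then Ahr-/-), 0 to 1 for genotype with hk S.E. at 20 h, 1 to 2 for time without hk S.E. in Ahr-/- BMMs and 5 to 6 for time with hk S.E. in each genotype, and changed no other count. Adding the replicate number as a block raised the activation calls by Ftl1 at 3 h (-0.30, adjusted p = 0.00197, edgeR) and Tfrc at 20 h (-0.55, adjusted p = 0.00433) in Ahr+/+ BMMs and by Slc11a1 at 3 h in Ahr-/- BMMs (0.26, adjusted p = 0.000729), and for time in Ahr+/+ BMMs by Lcn2 without hk S.E. (-1.06) and Ireb2 with it (-0.58). In the 8 contrasts in which every pair of same-numbered libraries correlated above 0.1, the block changed no call of the 9 genes. Depth limits Lcn2 and Slc40a1 most, at 1.07 and 3.44 CPM in their lowest libraries.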
